A study of Mus musculus with 7 samples.

Results

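Complement genes that macrophages and fibroblasts of the skin can make were examined in aged mouse skin after topical ABT-263. The 9 genes were taken by name from a fixed list (C1qa, C1qb, C1qc, C1ra, C2, C3, C4b, Cfb and Serping1), out of the 55450 genes counted. Skin was taken from C57BL/6 male mice aged 24 months after 5 days of topical treatment, with 4 mice given DMSO (480, 481, 482 and 483) and 3 mice given 5 μM ABT-263 (476, 477 and 478). In both groups the dorsal hair had been removed with clippers and a depilatory lotion, the skin cleansed with ethanol, and the treated area kept under a semi-occlusive dressing. ABT-263 (navitoclax) inhibits anti-apoptotic proteins of the Bcl-2 family and is used as a senolytic, a drug meant to clear senescent cells. Each mouse gave 1 polyA RNA library of whole skin. Untreated skin and skin of young mice were not analysed here, so every difference below is between ABT-263 and its vehicle on depilated and dressed skin.

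Complement is a cascade of plasma and tissue proteins that marks targets for uptake, attracts leukocytes and can perforate membranes. In the classical pathway, C1q binds antibody or damaged cells, the attached proteases C1r and C1s cleave C4 and C2, and the products form the convertase that cleaves C3. In the alternative pathway, factor B takes the place of C2 in a convertase that amplifies C3 cleavage. C1 inhibitor (Serping1) is a brake on the classical pathway. The liver makes most plasma complement, while C1q comes mainly from macrophages and dendritic cells, and fibroblasts make C1r, C1s, C3, C4 and C1 inhibitor locally.

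Between 20344364 and 26824123 read pairs were counted in the DMSO libraries and between 27325963 and 43562330 in the ABT-263 libraries. Levels are CPM, counts scaled to a common library size with TMM normalization, which assumes that most genes do not differ. Markers of skin were abundant in every library, with Krt14 of basal keratinocytes at 8427 to 24880 CPM and Col1a1 of fibroblasts at 1707 to 3718 CPM. Adgre1, which encodes the macrophage antigen F4/80, was detected in every library at 5.06 to 78.9 CPM. Skeletal muscle markers were abundant too, with a sum of 6 genes of 32510 to 65660 CPM after DMSO and 25080 to 33480 CPM after ABT-263. Defining genes of hepatocytes were low, with a sum of 5 genes of 1.73 to 26.3 CPM after DMSO and 1.03 to 4.61 CPM after ABT-263. ABT-263 mouse 476 stood apart in genes particular to neutrophils, named after their values were seen. Retnlg was at 232 CPM in that mouse against 2.09 and 3.03 CPM in 477 and 478, and Ly6g had 391 counts against 4 and 8. Mouse 476 was not apart in neutrophil genes only, since its summed T cell markers were at 39.4 CPM against 17.6 and 9.95 CPM in 477 and 478. The part of these differences in the changes of the complement genes was not tested, and values without mouse 476 are given with those of the other mice left out. Mouse numbers are labels of separate mice, and the labels name no batch.

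All 9 complement genes had a higher mean after ABT-263, and 4 of them passed the test: Cfb, Serping1, C3 and C1ra (edgeR quasi-likelihood test, adjusted p under 0.05 over the 17959 genes tested). These 4 of 9 are 44.4% of the genes, where 12.4% of all genes tested were called higher. Of the 4, Cfb was kept for testing by its counts in the treated mice alone, as given below. No member was lower, and 11.7% of all genes tested were. The median log2 fold change of the 9 genes was 1.46, against 0.002 over all genes tested. In 5 of the 9 genes (C1qb, C1qc, C1ra, Cfb and Serping1) every ABT-263 mouse lay above every DMSO mouse, which held for 18.7% of all genes tested. In no member was every ABT-263 mouse below every DMSO mouse, which held for 18.4%. In bulk skin, more cells of a type and more RNA per cell cannot be told apart.

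**Figure D1:**
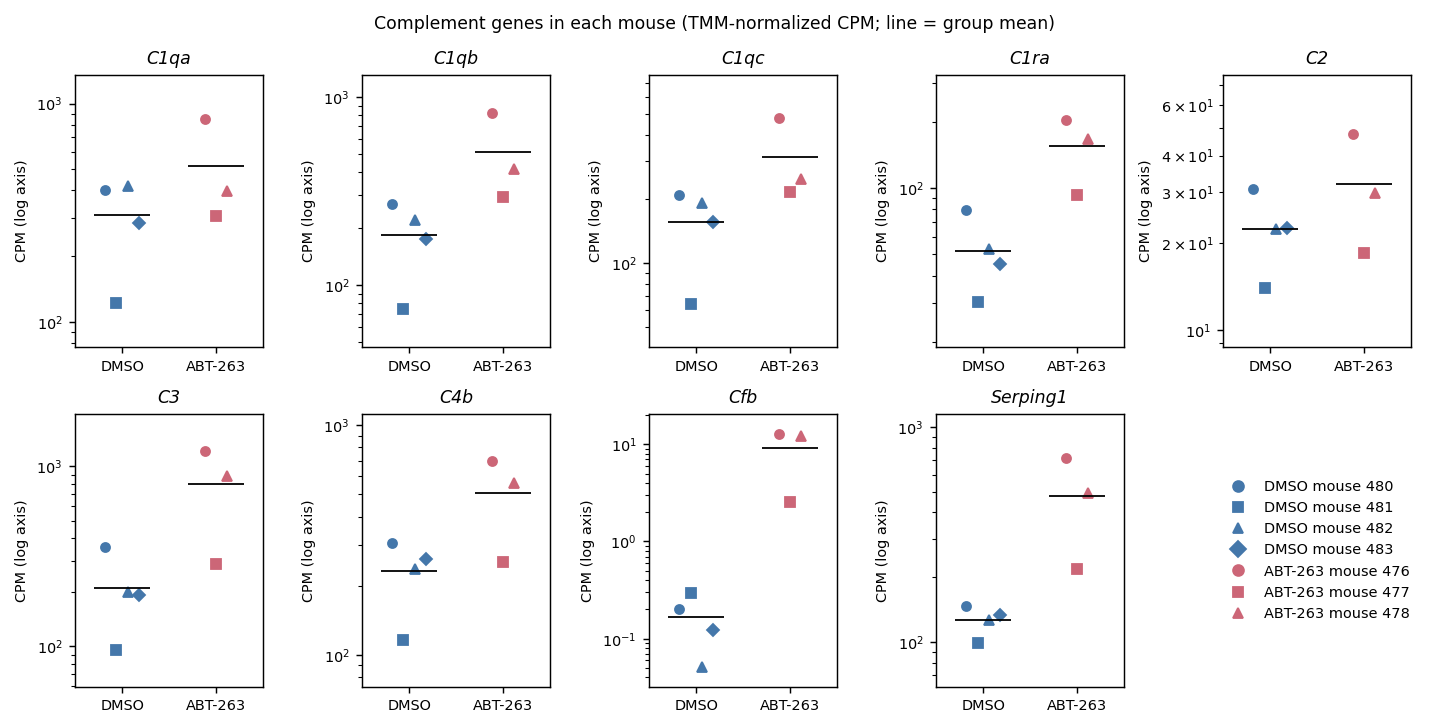
Each panel shows 1 complement gene with the CPM of every mouse on a log axis, DMSO in blue and ABT-263 in red, with a line at the group mean. ABT-263 mouse 476 was the highest and ABT-263 mouse 477 the lowest of the 3 treated mice in all 9 panels, and DMSO mouse 481 was the lowest control in 8 of the 9.

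The same mice stood at the ends of each group in gene after gene. Of the DMSO mice, 481 was the lowest for 8 of the 9 genes and 480 the highest for 7. Of the ABT-263 mice, 476 was the highest for 9 and 477 the lowest for 9. Markers of macrophages were also lowest in mice 481 and 477 and highest, among treated mice, in 476. The summed level of 13 genes was 618.5, 293.9, 659 and 481.5 CPM in DMSO mice 480 to 483 and 3057, 968 and 1388 CPM in ABT-263 mice 476 to 478. This was not particular to macrophages, since the summed endothelial, neutrophil and low hepatocyte markers had the same mice at these ends. The highest control was 480 for the endothelial and neutrophil sums, but 482 for macrophages. Sums of fibroblast, keratinocyte, adipocyte, T cell and skeletal muscle markers did not have these mice at all of these ends. Lyz2 had the highest level of the 13 macrophage markers in every mouse, so it weighs most in their sum. It was at 163, 83.1, 233 and 149 CPM in DMSO mice 480 to 483 and at 1576, 323 and 642 CPM in ABT-263 mice 476 to 478. Of these 13 markers, 9 were higher and 0 lower in the edgeR test, none was at 0, and their part in the changes of the complement genes was not tested. Without DMSO mouse 483 only 1 of the 13 markers was called higher, and without DMSO mouse 482 or ABT-263 mice 476 or 478 it was 4. Calls among all genes tested fell in the same fits, from 12.4% to between 4.8% and 6.01%.

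C1qa, C1qb and C1qc encode the A, B and C chains of C1q, the recognition molecule of the classical pathway, and lie side by side on the minus strand of chromosome 4 within 18.7 kb (positions here and below are those of GENCODE M21 on GRCm38). C1qa (chr4:136895917-136898803) was at 402.5, 122, 421 and 283 CPM in DMSO mice 480, 481, 482 and 483, and at 849.9, 306 and 397 CPM in ABT-263 mice 476, 477 and 478. The groups overlapped, since ABT-263 mice 477 and 478 lay below DMSO mice 480 and 482. The log2 fold change of 0.75 (standard error, SE, 0.48, edgeR adjusted p = 0.28) stayed short of the threshold. C1qb (chr4:136880129-136886187) was at 270.9, 74.5, 222 and 175 CPM in the DMSO mice and at 823.5, 295 and 416 CPM in the ABT-263 mice, in the same order of mice. The groups did not overlap, but the lowest treated mouse lay close to the highest control, and the log2 fold change of 1.46 (SE 0.48, edgeR adjusted p = 0.0597) missed the threshold. The DESeq2 Wald test, which called 13.6% of the genes it tested higher, placed C1qb past it (adjusted p = 0.00932). C1qc (chr4:136889804-136893065) was at 208, 64.1, 192 and 156 CPM after DMSO and at 480.1, 216 and 247 CPM after ABT-263, with a log2 fold change of 1.02 (SE 0.43, edgeR adjusted p = 0.117). Its groups did not overlap either, and it did not pass in either test (adjusted p = 0.0595 with DESeq2).

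C1qb was the chain gene with the largest fold change. The 250 bases before its start are shown because they lie next to the gene and clear of annotated exons. They are taken from RefSeq (build GRCm38.p6, minus strand, chr4:136886201-136886450) and written 5′ to 3′, with capitals for the only match to the motifs searched.
C1qb promoter: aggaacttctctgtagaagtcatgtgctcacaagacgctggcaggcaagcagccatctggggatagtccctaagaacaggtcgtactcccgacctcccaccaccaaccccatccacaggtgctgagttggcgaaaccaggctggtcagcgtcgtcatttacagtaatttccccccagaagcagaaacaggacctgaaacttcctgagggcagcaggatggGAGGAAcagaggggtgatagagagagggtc
The capitals mark GAGGAA, the core of sites bound by ETS factors such as PU.1 of myeloid cells, at bases -30 to -25 from the start. The motif was searched on both strands and occurs in 23.3% of the 32851 RefSeq promoter windows of this length, so its presence is a description and not a sign of binding. The window of C1qc held 1 match to the same motif on the other strand.

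The 3 chains make up one protein in equal amounts, so the ratios of their genes were compared mouse by mouse. The log2 ratio of C1qa to C1qb was 0.73 ± 0.15 (SD, n = 4) after DMSO and 0.01 ± 0.07 (SD, n = 3) after ABT-263, a difference of -0.72. After DMSO it lay between 0.57 and 0.93 and after ABT-263 between -0.07 and 0.05, so the groups were far apart compared with the spread within them (two-sided exact permutation test over mice, p = 0.0286, the smallest that 35 splits can give). The log2 ratio of C1qb to C1qc was 0.24 ± 0.09 (SD, n = 4) after DMSO and 0.66 ± 0.18 (SD, n = 3) after ABT-263, and that of C1qa to C1qc was 0.97 ± 0.12 (SD, n = 4) and 0.67 ± 0.16 (SD, n = 3), each with the same exact permutation p = 0.0286. In all 3 pairs the groups did not overlap. The 3 ratios are not independent results, since each follows from the others. After adjustment over the 13 pairs of genes compared, the p-value of each was 0.093, which did not pass. With 35 splits a pair can pass this adjustment only if most of the 13 pairs are at the smallest p-value. The adjusted test could therefore hardly pass, and its outcome does not decide whether the ratios shifted. With any 1 mouse left out, the difference in C1qa to C1qb stayed between -0.77 and -0.65. No stretch of 100 bases in these 3 transcripts occurs in a transcript of another gene.

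The chains were also set against Csf1r, the receptor for the growth factor that maintains macrophages. Csf1r rose from 35.8 to 72.1 CPM in the DMSO mice to 115 to 264 CPM in the ABT-263 mice (log2 fold change 1.55, SE 0.33, edgeR adjusted p = 0.0176). The log2 ratio of C1qb to Csf1r differed by -0.04 between the groups (exact permutation p = 0.857), with means of 1.54 ± 0.36 (SD, n = 4) after DMSO and 1.501 ± 0.14 (SD, n = 3) after ABT-263. That of C1qc to Csf1r differed by -0.46 (exact permutation p = 0.114), and the groups overlapped. That of C1qa to Csf1r differed by -0.75 (exact permutation p = 0.0571), with every ABT-263 mouse below every DMSO mouse. None of these 3 ratios passed the test. The log2 fold change of Csf1r equals the median of the 13 macrophage markers, which ran from -0.695 to 2.43, with Adgre1 at 2.07. These differences therefore hold for Csf1r and would be lower or higher against other markers.

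**Figure D2:**
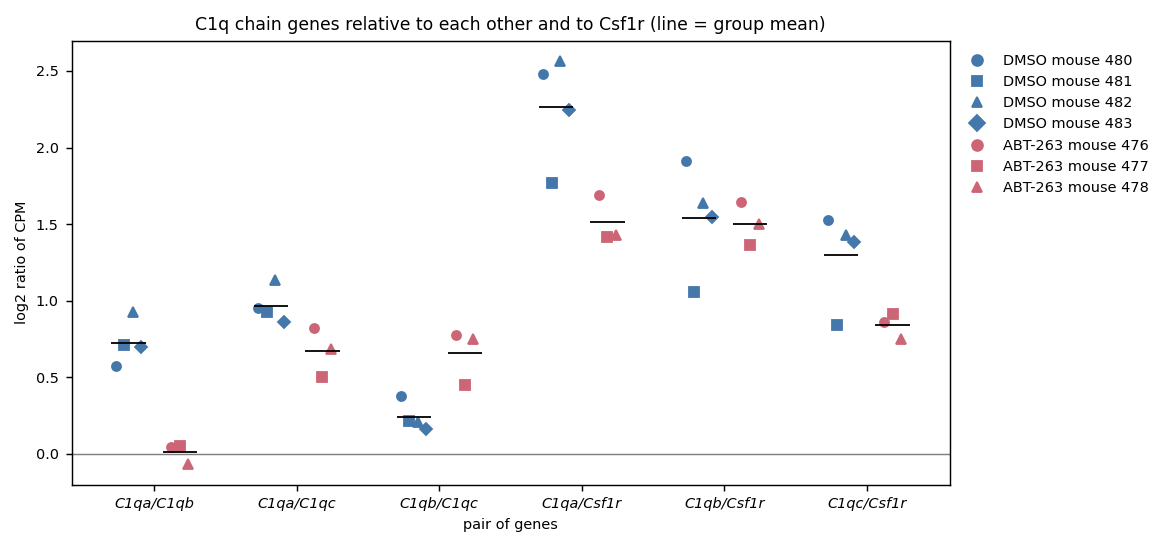
The y axis shows the log2 ratio of the CPM of 2 genes in each mouse, DMSO in blue and ABT-263 in red, with a line at the group mean. For C1qa to C1qb the 4 DMSO mice sit between 0.57 and 0.93 and the 3 ABT-263 mice between -0.07 and 0.05, while for C1qb to Csf1r the 2 groups have means of 1.54 and 1.501.

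C1ra encodes C1r, the protease that C1q activates first, and Serping1 encodes C1 inhibitor, the serpin that inactivates C1r and C1s. C1ra (chr6:124512405-124523443) was at 79.1, 30.2, 52.9 and 45.4 CPM in DMSO mice 480 to 483 and at 204.5, 92.9 and 167 CPM in ABT-263 mice 476 to 478. Every treated mouse lay above every control, and C1ra rose with a log2 fold change of 1.58 (SE 0.36, edgeR adjusted p = 0.0213). Of the 100-base windows of its transcript, 34.5% also occur in C1rb, a near-identical copy, and only uniquely aligned reads were counted, so the level of C1ra is uncertain by reads lost to that copy. Serping1 (chr2:84765387-84775444) was at 147, 99.1, 126 and 134 CPM after DMSO and at 718, 218 and 494 CPM after ABT-263. Its control mice were the most alike of the 9 genes, with a coefficient of variation of 15.9% against 30.6% to 62.3% for the others. Serping1 rose with a log2 fold change of 1.91 (SE 0.36, edgeR adjusted p = 0.0121), and it passed whichever mouse was left out.

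The protease and its inhibitor were compared directly. The log2 ratio of Serping1 to C1ra was 1.36 ± 0.36 (SD, n = 4) after DMSO and 1.54 ± 0.29 (SD, n = 3) after ABT-263, a difference of 0.18 that lay within the spread of the mice (exact permutation p = 0.514). Between mice it ran from 0.89 to 1.81.

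C4b and C2 encode the classical pathway components that C1s cleaves. C4b (chr17:34728380-34743882) was at 308, 116, 236.5 and 262 CPM in DMSO mice 480 to 483 and at 700.9, 255 and 563 CPM in ABT-263 mice 476 to 478. ABT-263 mouse 477 lay below DMSO mice 480 and 483. The log2 fold change of 1.13 (SE 0.41, edgeR adjusted p = 0.0758) did not pass, while the DESeq2 Wald test placed C4b past the threshold (adjusted p = 0.0252). Without ABT-263 mouse 477 it passed in edgeR too, with a log2 fold change of 1.48 (adjusted p = 0.0299). Of the 100-base windows of C4b, 16.5% also occur in C4a, its neighbouring copy, which had 8 to 30 counts per library. C2 (chr17:34862604-34898265) was at 30.6, 13.9, 22.3 and 22.6 CPM after DMSO and at 47.7, 18.5 and 29.7 CPM after ABT-263. Its groups overlapped, with ABT-263 mouse 477 below 3 of the 4 controls and 478 below mouse 480. The log2 fold change of 0.51 (SE 0.35, edgeR adjusted p = 0.309) was the smallest of the 9 and did not pass.

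C3 and Cfb encode the central component and factor B, the pair that forms the alternative pathway convertase. C3 (chr17:57203970-57228136) was at 358, 95.6, 202 and 194 CPM in DMSO mice 480 to 483 and at 1223, 287 and 880.1 CPM in ABT-263 mice 476 to 478. ABT-263 mice 476 and 478 were far above all controls, and 477 lay below DMSO mouse 480. C3 rose with a log2 fold change of 1.91 (SE 0.55, edgeR adjusted p = 0.0416). The call held in 2 of the 7 fits that left out 1 mouse and was lost without DMSO mice 481, 482 or 483 or ABT-263 mice 476 or 478, with adjusted p-values up to 0.147. The log2 ratio of C3 to C4b was -0.18 ± 0.28 (SD, n = 4) after DMSO and 0.54 ± 0.33 (SD, n = 3) after ABT-263, a difference of 0.72 that did not pass (exact permutation p = 0.0857).

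C3 is shown with the 250 bases before its start, likewise clear of annotated exons (RefSeq, build GRCm38.p6, minus strand, chr17:57228137-57228386), because C3 is the component on which the pathways converge and it passed the test. Capitals mark the only match to the motifs searched.
C3 promoter: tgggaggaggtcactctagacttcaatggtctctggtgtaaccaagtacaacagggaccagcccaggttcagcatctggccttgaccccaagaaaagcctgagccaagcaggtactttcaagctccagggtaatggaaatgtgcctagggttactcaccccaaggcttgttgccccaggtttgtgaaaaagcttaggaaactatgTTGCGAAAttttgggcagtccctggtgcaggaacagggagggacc
The capitals fit TTGCNNAA, a form of the site of C/EBP factors, which act in acute-phase responses, at bases -45 to -38 from the start. It occurs in 9.56% of the promoter windows of this length. The C3 and C1qb windows held no match to the gamma-activated site TTCNNNGAA, found in 7.02% of all windows, or to the interferon motif GAAANNGAAA, found in 2.98%. Windows were on hand for 4 of the 9 genes (C1qb, C1qc, C1ra and C3), and those of C1qc and C1ra are not shown because annotated exons overlap them.

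Cfb showed the largest change of the 9 genes. Cfb (chr17:34856374-34862518) had 5, 7, 1 and 3 counts in DMSO mice 480 to 483 and 359, 100 and 561 counts in ABT-263 mice 476 to 478, that is 0.205, 0.295, 0.0513 and 0.123 CPM against 12.8, 2.52 and 12.1 CPM. It was thus near the detection limit in every control and clearly detected in every treated mouse. Cfb rose with a log2 fold change of 5.69 (SE 0.70, edgeR adjusted p = 0.00619) and passed whichever mouse was left out, with a log2 fold change of 5.38 to 6.17. With so few counts in the controls, Cfb passed the filter on low counts only through the treated mice. With every gene that had a count included, its log2 fold change was 5.73 (edgeR adjusted p = 0.00213), in a fit that called 6.11% of genes higher. Pooled over mice, 16 counts after DMSO and 1020 after ABT-263 gave a 55.0-fold higher rate per total count (95% exact interval 33.7 to 96.6, which covers counting error only and not the variation between mice). On the deposited variance-stabilized scale, which compresses low counts, its log2 difference was 3.39 (limma adjusted p = 0.00644).

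The annotation limits how Cfb and C2 can be read. The genes lie 85 bases apart on the same strand, and the annotation holds a further gene, Gm20547, that runs across both. Gm20547 was chosen for mention after its values were seen. Its 3902 exon bases all lie in exons of Cfb or C2, where it covers 79.5% of the exon bases of Cfb and 42.8% of those of C2. Gm20547 itself had 0 counts in all 7 libraries, and how reads shared by several genes were counted is not given in the sources used here. The counts of Cfb and C2 may therefore come from the 579 and 2216 exon bases that Gm20547 does not cover. Per kb of those bases, Cfb was at 0.291 ± 0.181 (SD, n = 4) CPM after DMSO and 15.8 ± 9.92 (SD, n = 3) CPM after ABT-263, and C2 was at 10.1 ± 3.09 (SD, n = 4) CPM and 14.4 ± 6.65 (SD, n = 3) CPM. On that scale the mean of Cfb was below that of C2 after DMSO and slightly above it, well within the spread, after ABT-263. The log2 ratio of Cfb to C2 differed by 5.24 between the groups (exact permutation p = 0.0286, adjusted p = 0.093), with no overlap. The adjusted value carries the limit given for the C1q chains. The size rests on the 1 to 7 counts of Cfb in the controls, and the difference was 3.13 with 0.5 CPM added and 2.93 on the variance-stabilized values.

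Levels of different genes were compared per kb of exon. After DMSO the order of the means was C1qa (295), C1qb (170.5), C1qc (80.3), Serping1 (54.4), C3 (41.3), C4b (40.5), C1ra (17.4), C2 (5.77) and Cfb (0.0597), all in CPM per kb. Neighbours in this order overlapped between mice down to C4b and C1ra, and only the steps from C1ra to C2 and from C2 to Cfb showed no overlap. C3 lay above C4b in 1 of the 4 controls, so these levels could not be ranked. After ABT-263 the means were 498 CPM per kb for C1qa, 470.1 for C1qb, 205 for Serping1, 163 for C1qc, 155 for C3, 88.9 for C4b, 51.9 for C1ra, 8.25 for C2 and 3.23 for Cfb. C3 then lay above C4b in 3 of 3 mice, and C1qa above C1qb in 2 of 3. The values of C2 and Cfb carry the limit of the shared exons given above.

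**Figure D3:**
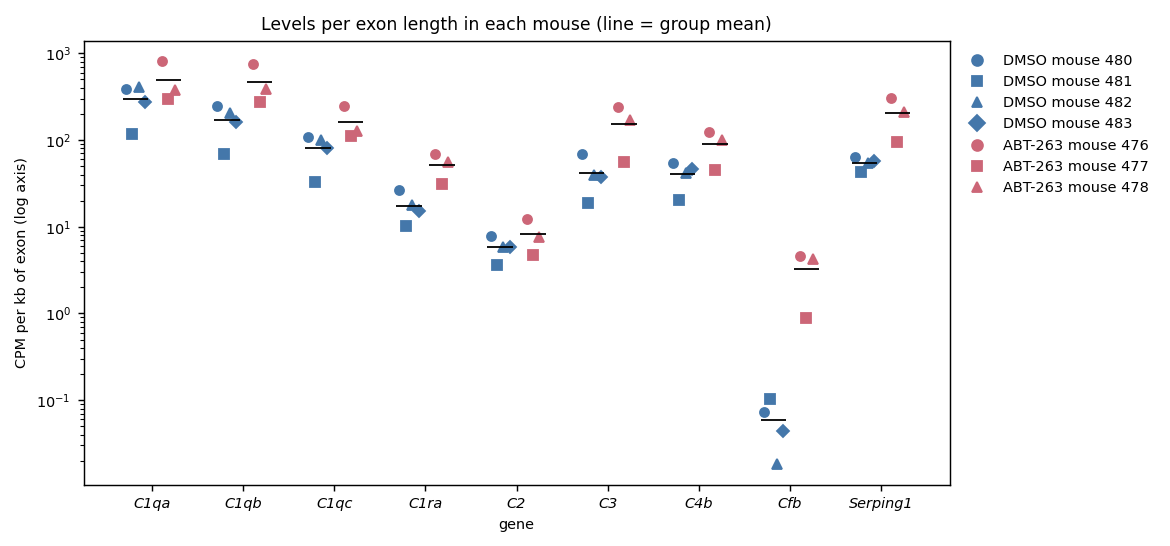
The y axis shows CPM per kb of annotated exon on a log axis for each of the 9 genes, with 1 point per mouse, DMSO in blue and ABT-263 in red, and a line at the group mean. The C1q chain genes have the 3 highest means after DMSO, Serping1 lies above C1qc after ABT-263, and Cfb moves from a mean of 0.0597 after DMSO to 3.23 after ABT-263.

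Of the 45 other complement genes listed, 33 were expressed enough to be tested. In the edgeR test 8 of these were higher after ABT-263, 1 was lower and 24 did not pass, with a median log2 fold change of 0.86. The number called higher was 2 without DMSO mouse 482 or ABT-263 mouse 478, 4 without ABT-263 mouse 476, 5 without DMSO mouse 483 and 12 without DMSO mouse 480. Of all genes tested, 12.4% were called higher with all mice, between 4.8% and 6.01% without any one of the first 4 of these mice, and 11.6% without mouse 480. Among the C1 proteases and classical components, C1s1, the partner of C1r, rose from 76.4 ± 18.8 (SD, n = 4) CPM to 241 ± 112 (SD, n = 3) CPM, with a log2 fold change of 1.66 (SE 0.35, edgeR adjusted p = 0.0173). C1s1 lay between 48.5 and 88.1 CPM in the controls and between 121 and 342 CPM in the treated mice. C1s2, a close copy of C1s1 that could take some of its reads (2.19, adjusted p = 0.122) and C1rl (0.94, adjusted p = 0.123) did not pass in edgeR, and C4a differed by -0.25 on the log2 scale (adjusted p = 0.74).

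Of the receptors, 4 of 8 tested were higher and 0 lower. C3ar1, the receptor for the C3a fragment, went from 4.59 to 11.9 CPM in the controls to 65.0, 16.5 and 30.0 CPM in ABT-263 mice 476, 477 and 478 (log2 fold change 1.96, SE 0.49, edgeR adjusted p = 0.0283). Itgb2, the shared beta chain of complement receptors 3 and 4, rose by 2.51 (adjusted p = 0.0205) and C5ar2, a receptor for C5a, by 2.29 (adjusted p = 0.0255) on the log2 scale in edgeR. For Itgb2, mouse 476 stood well above the other treated mice, at 127.7 CPM against 28.6 and 31.2 CPM in 477 and 478. The controls were at 6.36 to 13.01 CPM. The fourth was Vsig4, a macrophage receptor for C3 fragments (1.62, edgeR adjusted p = 0.0352), chosen for mention after its value was seen. C5ar1, the main C5a receptor, was at 2.19 to 12.1 CPM after DMSO and at 61.7, 13.2 and 14.2 CPM in mice 476, 477 and 478, so mouse 476 stood well above the other treated mice, and the log2 difference of 1.73 (edgeR adjusted p = 0.111) did not pass.

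The regulators went both ways. Cd59a, which encodes a membrane protein that blocks assembly of the lytic pore and has a close copy in Cd59b, was at 42.9, 58.2, 79.6 and 89.7 CPM in DMSO mice 480 to 483 and at 22.4, 23.4 and 26.2 CPM in ABT-263 mice 476 to 478. The treated mice were close together and below all controls, and Cd59a was the only one of the 33 genes called lower (log2 fold change -1.495, SE 0.25, edgeR adjusted p = 0.00895). Cr1l, which encodes the membrane regulator Crry, rose by 0.47 on the log2 scale (edgeR adjusted p = 0.0368). Clu, which encodes clusterin, an inhibitor of the terminal complex, differed by 0.67 (edgeR adjusted p = 0.0879) and Cd55, another membrane regulator, by 0.94 on the log2 scale (edgeR adjusted p = 0.131). Cfi, encoding factor I, had 0 to 5 counts per control library and 20, 2 and 37 counts in the treated mice, too few to be tested.

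Of the genes tested in the lectin, alternative and terminal pathways, 1 of 4, 0 of 2 and 1 of 4 were called higher. These are too few to set against the 12.4% of all genes tested. In the lectin pathway Colec12, a scavenger receptor with a collagen-like domain, rose by 0.80 on the log2 scale (edgeR adjusted p = 0.0268), while Masp1 (0.86, adjusted p = 0.0615) and Colec11 (0.87, adjusted p = 0.142) did not pass. Cfd, which encodes factor D, the adipocyte-made protease that cleaves factor B, was at 371, 164, 164 and 918 CPM in DMSO mice 480 to 483 and at 1241, 190.2 and 1418 CPM in ABT-263 mice 476 to 478. The mice of each group differed several-fold and the groups overlapped (log2 fold change 1.232, SE 0.80, edgeR adjusted p = 0.29). The summed level of 5 adipocyte markers was 574 to 1499 CPM after DMSO and 681 to 1877 CPM after ABT-263, and 0 of the 5 passed. Cfp, encoding properdin, differed by 0.78 on the log2 scale (edgeR adjusted p = 0.205). In the terminal pathway C7 rose from 3.40 ± 0.88 (SD, n = 4) CPM to 15.4 ± 11.3 (SD, n = 3) CPM, a log2 fold change of 2.18 (edgeR adjusted p = 0.0162), C6 (1.34, adjusted p = 0.0969) and C8g (0.19, adjusted p = 0.799) did not pass, and Hc, which encodes C5, had 1 to 15 counts per library and was not tested.

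**Figure D4:**
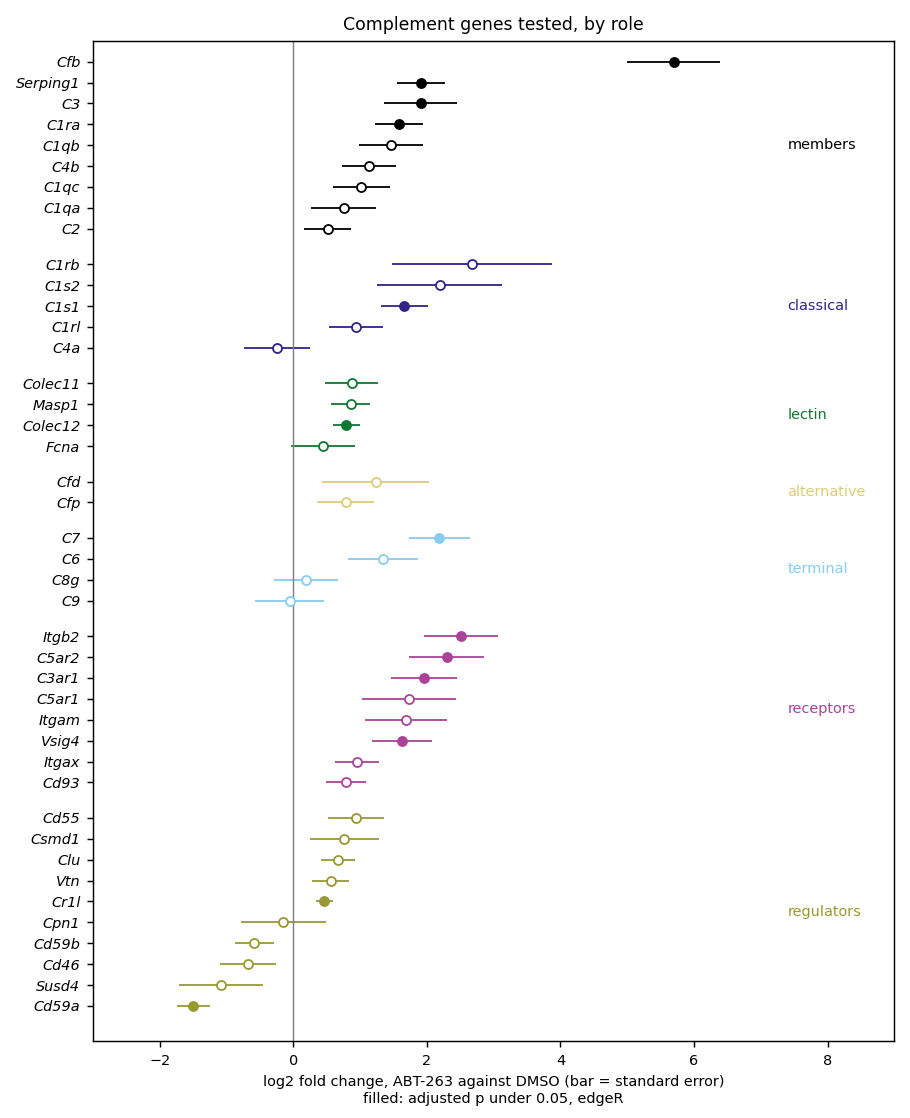
Log2 fold changes with standard errors of the 9 members and of the 33 other complement genes tested, grouped by role, with filled points for an adjusted p under 0.05 in edgeR. Cfb lies farthest to the right at 5.69, and Cd59a is the only filled point below 0, at -1.495.

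Markers of some other cell types moved as well. Of all genes tested, 12.4% were called higher and 11.7% lower, and several of the small counts below are near these shares. Of 12 fibroblast markers, 3 were higher and 0 lower in edgeR, with sums of 4259 to 6054 CPM after DMSO and 6811 to 9441 CPM after ABT-263 and none at 0. Pdgfra, a receptor that marks fibroblasts, rose from 19.6 ± 3.84 (SD, n = 4) CPM to 64.9 ± 37.4 (SD, n = 3) CPM, a log2 fold change of 1.72 (edgeR adjusted p = 0.0156). Relative to Pdgfra, the log2 ratio differed between the groups by -0.01 for C1ra, 0.23 for C3, -0.49 for C4b and 0.17 for Serping1, none of which passed (exact permutation p = 1, 0.571, 0.171 and 0.486). Pdgfra had the largest log2 fold change of the 12 fibroblast markers, whose median was 0.57 (Col1a1 0.47). These differences therefore hold for Pdgfra and would be shifted upward against the rest of the list. For C4b, with a log2 fold change of 1.13, the sign would turn against Col1a1. All 6 endothelial markers were higher (sums of 128 to 276 and 401 to 509 CPM), as were 3 of 6 neutrophil markers tested (sums of 100.4 to 1822 and 5098 to 8377 CPM, most of them from S100a8 and S100a9, which other cells also express). No T cell marker passed (0 of 6), 1 of 10 keratinocyte markers was higher and 1 lower, and 2 of 6 skeletal muscle markers were lower. The part of these cell types in the changes of the complement genes was not tested.

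The genes with the most similar course over the 7 mice were found for each complement gene among 15581 other genes with a mean of at least 1 CPM. The measure was the root mean square difference of log2 CPM, with 0.5 CPM added and each gene centred on its own mean. For C1qa they were Ly86 (difference 0.12) and Clec10a (0.13), for C1qb Lgi2 (0.13) and Cd84 (0.14), and for C1qc Pld4 (0.11) and Unc93b1 (0.14). For C1ra they were Mmp27 (0.14) and Loxl4 (0.15), for Serping1 Emilin1 (0.14) and Parp9 (0.16), and for C2 Adamts5 (0.15) and Zeb2os (0.16). C3 was nearest to Ifit3 (0.21) and Irf7 (0.24), and C4b to Ackr1 (0.21) and Layn (0.22). Cfb had no close match by this measure, with Pcdhgc3 (0.49) and AA467197 (0.51) nearest. Its controls were at 0.0513 to 0.295 CPM, below the 0.5 CPM added, so its distances depend on that value. Among the members themselves, C1qa and C1qc were the closest pair (0.19). These likenesses rest on 7 mice in 2 groups and are a description.

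How far the calls depended on single mice differed between the genes. When the fit was repeated without 1 mouse at a time, Cfb and Serping1 passed in 7 of 7 fits, C1ra in 3, C3 in 2, C4b in 1, and C1qa, C1qb, C1qc and C2 in 0. For Cfb the limit of the filter given above holds in these fits too. C1ra lost its call without DMSO mice 482 or 483 or ABT-263 mice 476 or 478, with adjusted p-values up to 0.0682. The number of the 9 genes called higher was 2 when any one of those 4 mice was left out and 5 without ABT-263 mouse 477. Over all genes tested, the share called higher was 12.4% with all mice, 4.8% without DMSO mouse 482, 5.58% without 483, 6.01% without ABT-263 mouse 476, 5.22% without 478 and 12.3% without 477, so calls were lost across the whole comparison. Without ABT-263 mouse 476 the log2 fold change went from 0.75 to 0.20 for C1qa, from 0.51 to 0.11 for C2, from 1.02 to 0.58 for C1qc and from 1.46 to 0.94 for C1qb. It was then 0.83 for C4b, 1.33 for C1ra, 1.46 for C3, 1.498 for Serping1 and 5.38 for Cfb. An adjusted p above the threshold, as for C1qb, C1qc and C4b, does not show that a gene was at the same level in both groups.

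**Figure D5:**
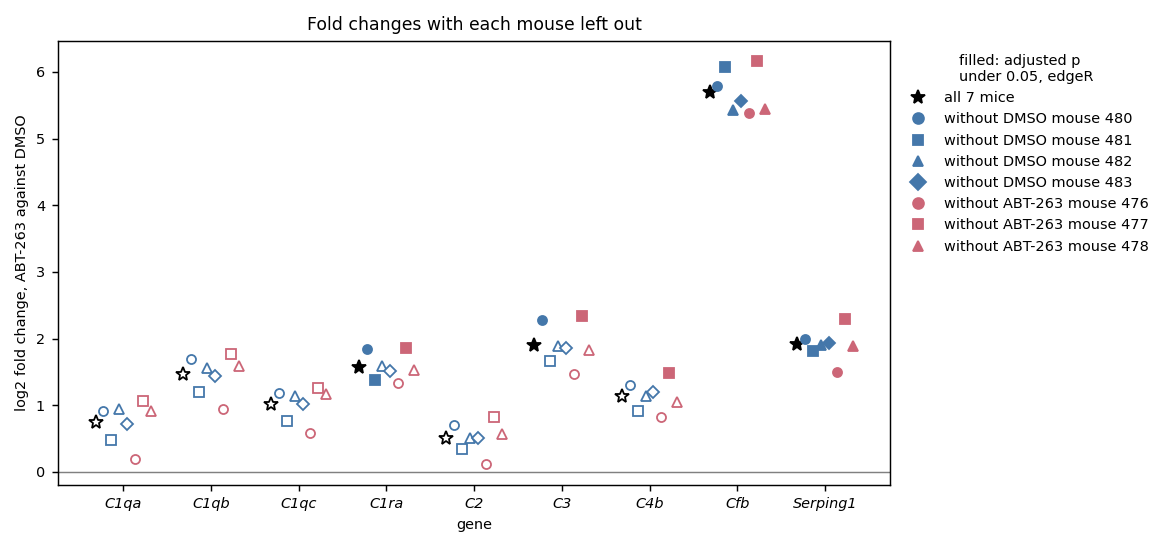
The y axis shows the log2 fold change of each gene with all 7 mice (star) and with each mouse left out, filled where the adjusted p was under 0.05 in edgeR. All values lie above 0, those without ABT-263 mouse 476 are the lowest and those without ABT-263 mouse 477 the highest for each gene, and Cfb and Serping1 are filled throughout.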

How the data were processed

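PolyA RNA of dorsal skin was sequenced from 7 mice, 4 treated with DMSO and 3 with ABT-263. The authors aligned reads to mm10 with STAR (2.7.9a), counted uniquely aligned proper pairs on the same strand per Ensembl gene for non-mitochondrial genes with featureCounts (Subread 1.6.2), and deposited raw counts. A second deposited table holds log2-like variance-stabilized values that the authors made with DESeq2 (1.23.10), used here only as an alternative. The labels and the methods name different RNA extraction kits.

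Symbols, positions and exon lengths were taken from GENCODE M21 (GRCm38, the mm10 assembly), which held 55190 of the 55450 identifiers and is not the annotation release the authors used. Counts were filtered with filterByExpr, TMM-normalized and tested with the quasi-likelihood test of edgeR (4.0.16, robust estimation, R 4.3.3), two-sided, with Benjamini-Hochberg adjustment over 17959 genes and a threshold of 0.05. Standard errors are the log2 fold change divided by the square root of the F statistic. Ratios of 2 genes were compared with two-sided exact permutation tests over mice. The fit was tested on simulated data. Alternatives were DESeq2 (1.42.0), its size factors, other filters on low counts, thinning to 20344364 counts, limma (3.58.1) on the variance-stabilized values, and leaving out each mouse.

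The genes, the lists and the tests were chosen with earlier results of these data known. Genes named are the 9 members and the 3 with the smallest p-value in each role of the other complement genes. A fixed set of complement and marker genes and the 2 nearest in course to each member are named too. Vsig4, Gm20547, Retnlg, Ly6g, S100a8, S100a9 and Lyz2 were added after their values were seen. Protein sequences were not used here, and 1 gene of the lists is not reported here.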

Additional observations from a re-analysis of the deposited data

Results flagged for a closer look

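For 57 genes and summed levels, Dixon's ratio was computed over the DMSO mice to find a single mouse that stood apart. It passed the 5% limit for 4 genes, and about 2.85 would do so by chance. C1rb (ratio 0.846) had 26 counts in mouse 480 and 0, 0 and 4 in mice 481, 482 and 483. C1s1 (ratio 0.852) was at 48.5 CPM in mouse 481 and at 82.2 to 88.1 CPM in the other controls. C5ar1 (ratio 0.831) was at 2.19 CPM in mouse 481 and at 10.4 to 12.1 CPM in the others, and Itgb2 (ratio 0.842) at 6.36 CPM against 11.96 to 13.01 CPM. None of the 9 members passed the limit. Groups of 3, such as the ABT-263 mice, were not examined.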

How the results depend on the processing

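No paired analysis was possible because the labels share no replicate number between the groups. All 116 refits of the 9 genes gave a log2 fold change above 0, and 102 left the gene on its side of the threshold. The refits reuse the same mice and are not independent. With the DESeq2 Wald test C1qb (log2 fold change 1.48) and C4b (1.15) passed, 6 of the 9 genes were higher, and 13 of the other complement genes were. That test covered 21822 genes, against 17959 in edgeR, and called 13.6% of them higher. Its 13 calls are therefore not directly comparable with the 8 of edgeR. C3 no longer passed with all genes that had a count included (1.93, edgeR adjusted p = 0.121) or with limma on the variance-stabilized values (1.83, adjusted p = 0.0539). The share of all genes called higher was 6.11% in the former fit and 11.9% in the latter, against 12.4% in the main fit. Cfb could not be tested with at least 10 counts required in every library. Thinning counts to the smallest library and DESeq2's size factors changed no call of a member. With each mouse left out, the number of members called higher lay between 2 and 5 and that of other complement genes between 2 and 12. The share of all genes called higher lay between 4.8% and 12.3% in these fits. The log2 fold change lay between 1.33 and 1.865 for C1ra, 1.46 and 2.335 for C3, and 0.83 and 1.48 for C4b. The lowest value of every member came without ABT-263 mouse 476, down to 0.20 for C1qa, 0.11 for C2 and 0.58 for C1qc. The lowest number of other complement genes came without DMSO mouse 482 or ABT-263 mouse 478. The number of macrophage markers called higher, 9 with all mice, was 1 without DMSO mouse 483, 4 without DMSO mouse 482 or ABT-263 mice 476 or 478, and 2 with all genes that had a count included. Calls over all genes fell in each of these fits too, from 12.4% to between 4.8% and 6.11% called higher. The difference in C1ra to Pdgfra, near 0, turned to 0.006 with 0.5 CPM added and to 0.016 on the variance-stabilized values. Where a call changed, the cause was not tested.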
